A study of Homo sapiens with 2 samples.

Results

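The UDP-glucuronosyltransferases (UGTs) described here are 10 genes, UGT1A1, UGT1A3, UGT1A6 and UGT1A9 of the UGT1A locus and UGT2B4, UGT2B7, UGT2B10, UGT2B11, UGT2B15 and UGT2B17 of the UGT2B locus. They were taken by gene name from the deposited FPKM table (a read count divided by gene length and by library depth), in which all 10 were found among 60448 genes. The table holds 1 library of HepG2 cells transfected with an siRNA against SPRTN and 1 library of HepG2 cells transfected with a negative control siRNA. HepG2 is a line from a human liver tumour that keeps many hepatocyte functions but makes less of several drug-metabolising enzymes than liver does. In both groups the siRNA was at 40 nM, the transfection mix was left for 24 h, and total RNA was isolated at 72 h and enriched for polyadenylated RNA. SPRTN is a protease that removes proteins stuck to DNA, and the question, from the study's title, is what its loss does to gene expression.

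UGT enzymes sit in the membrane of the endoplasmic reticulum and join glucuronic acid, taken from UDP-glucuronic acid, to bilirubin, bile acids, steroid hormones and drugs, which makes them water-soluble enough to leave in bile or urine. Liver is the main site of this reaction in the body. The UGT1A enzymes come from 1 locus in which each gene has its own first exon and all share the remaining exons, so they differ in the part of the protein that binds the substrate. The UGT2B enzymes come from separate, duplicated genes that lie side by side.

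A library depth of about 67100000 reads in SPRTN siRNA cells and 96400000 in control siRNA cells was inferred from the FPKM values. It was not read from a stated total. SPRTN itself stood at 2.07 FPKM in SPRTN siRNA cells and 7.81 FPKM in control siRNA cells, 3.77-fold lower (95% interval 3.29 to 4.33), as its label states. Hepatocyte markers were present, and all 8 of the list had a mean of at least 1 FPKM. Albumin (ALB) was at 16435 FPKM in SPRTN siRNA cells and 9997 FPKM in control siRNA cells. With 1 library per group, no difference below has a replicate check and none was tested. Each interval is a 95% Clopper-Pearson interval computed from how the recovered reads of a gene divide between the libraries, and it covers counting error only. In bulk RNA, a change in the number of cells that make a transcript and a change in the amount per cell cannot be told apart. The libraries also differed in measures that are not about UGT genes. Mitochondrial genes took 11.5% of recovered reads with SPRTN siRNA and 8.70% with control siRNA, and the nuclear RNA MALAT1 was at 110 FPKM with SPRTN siRNA and 43.2 FPKM with control siRNA. The part of these differences in the UGT values was not tested.

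All 10 UGT members had a higher FPKM in SPRTN siRNA cells than in control siRNA cells, but their abundance and the size of the difference varied widely. UGT2B11, UGT1A1 and UGT2B4 were about 4-fold to 5-fold higher, UGT2B7 was 2-fold higher, and UGT2B10, the most abundant, was 1.17-fold higher. UGT1A6 had the largest ratio, 13.1-fold, from a low level. UGT1A3 and UGT1A9 were low, and UGT2B15 and UGT2B17 were near the limit of detection, with intervals that include 1. Of all genes with a mean of at least 1 FPKM, 43.4% were higher, but 5 of the 10 members lie below that mean.

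The sequence around the start of the genes is given first for UGT2B10 and UGT2B11, a pair close in sequence whose ratios differed, and for UGT2B7, UGT1A1 and UGT1A6. Each window runs from 250 bases before to 50 bases after the start site in RefSeq (GRCh38.p14), 5′ to 3′ on the strand of the gene. A window was found for 8 of the 10 members. In the UGT2B10 window (chr4:68815744-68816043, plus strand) and the UGT2B11 window (chr4:69214699-69214998, minus strand), capitals mark the bases that differ between them or have no partner in a global alignment.
UGT2B10: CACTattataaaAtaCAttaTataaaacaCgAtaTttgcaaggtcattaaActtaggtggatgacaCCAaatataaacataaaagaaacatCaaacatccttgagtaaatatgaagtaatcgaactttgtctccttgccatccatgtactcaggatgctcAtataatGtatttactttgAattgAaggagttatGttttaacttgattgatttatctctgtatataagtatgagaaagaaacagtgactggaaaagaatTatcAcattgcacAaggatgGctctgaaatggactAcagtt
UGT2B11: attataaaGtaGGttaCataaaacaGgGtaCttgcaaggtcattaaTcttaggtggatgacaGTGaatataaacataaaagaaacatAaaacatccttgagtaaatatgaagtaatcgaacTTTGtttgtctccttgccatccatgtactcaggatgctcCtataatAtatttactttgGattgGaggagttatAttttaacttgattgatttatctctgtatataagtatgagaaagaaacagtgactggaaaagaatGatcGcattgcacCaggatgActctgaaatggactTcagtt
The aligned windows were identical at 90.1% of columns, with 22 mismatches and 8 gap columns. The coding sequences of the same pair were identical at 95.0% of columns, with 75 mismatches. The UGT2B7 window (chr4:69096224-69096523, plus strand) was identical to that of UGT2B10 at 61.5% of columns and to that of UGT2B11 at 62.9%.
UGT2B7: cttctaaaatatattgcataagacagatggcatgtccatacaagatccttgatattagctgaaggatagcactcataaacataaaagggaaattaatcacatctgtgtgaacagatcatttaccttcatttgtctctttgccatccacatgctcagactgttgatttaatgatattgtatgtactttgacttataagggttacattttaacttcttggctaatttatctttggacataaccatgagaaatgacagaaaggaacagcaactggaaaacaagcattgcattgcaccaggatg

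Short motifs were searched on both strands of every window, as letters only. GCGTG, the core bound by the aryl hydrocarbon receptor (AHR), was found in 36.5% of 35116 RefSeq windows. TGACNNNGC, the core of the antioxidant response element read by NRF2, was in 13.3%, and AGGTCA, a nuclear receptor half-site, was in 13.8%. In the windows at both RefSeq starts of UGT1A6 (chr2:233691452-233691751 and chr2:233692640-233692939, plus strand), capitals mark the motifs found. The UGT1A1 window (chr2:233760020-233760319, plus strand) held none of them and is all in lower case. The UGT1A1 window is shown for the enzyme that conjugates bilirubin, and those of UGT1A6 for the largest ratio.
UGT1A1: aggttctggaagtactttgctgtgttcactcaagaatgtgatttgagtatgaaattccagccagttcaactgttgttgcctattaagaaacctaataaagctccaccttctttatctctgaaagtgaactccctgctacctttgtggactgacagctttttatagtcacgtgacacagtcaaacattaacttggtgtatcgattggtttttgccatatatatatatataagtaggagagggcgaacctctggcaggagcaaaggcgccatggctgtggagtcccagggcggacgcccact
UGT1A6 first start: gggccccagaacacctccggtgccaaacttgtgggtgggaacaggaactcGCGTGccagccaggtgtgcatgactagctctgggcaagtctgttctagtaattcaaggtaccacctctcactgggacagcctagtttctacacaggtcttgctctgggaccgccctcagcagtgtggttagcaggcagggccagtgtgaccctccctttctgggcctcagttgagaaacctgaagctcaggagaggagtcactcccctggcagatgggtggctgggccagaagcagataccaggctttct
UGT1A6 second start: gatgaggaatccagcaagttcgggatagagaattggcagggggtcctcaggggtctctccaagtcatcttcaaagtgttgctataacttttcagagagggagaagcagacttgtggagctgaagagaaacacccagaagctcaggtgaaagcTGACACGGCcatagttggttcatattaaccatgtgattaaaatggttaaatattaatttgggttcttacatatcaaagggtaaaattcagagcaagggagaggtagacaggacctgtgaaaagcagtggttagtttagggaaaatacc
The UGT1A6 window of the first start held GCGTG with its first base at position -200 from the start site, and that of the second held TGACNNNGC at -98. UGT1A3 held GCGTG at 46. UGT1A9 held GCGTG on the minus strand at -65. UGT2B10 held AGGTCA at -210 and UGT2B11 held it at -214, and in both it overlapped a match to TGACNNNGC on the minus strand. The windows of UGT2B10 and UGT2B11 thus hold the same motifs. UGT2B15 held AGGTCA at -217 and -143, and UGT2B7 held none of the motifs. A match is a description of the letters and shows no binding.

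UGT1A1, the enzyme that conjugates bilirubin in human liver, had 11.0 FPKM in SPRTN siRNA cells and 2.40 FPKM in control siRNA cells. These values rest on about 2135 reads in SPRTN siRNA cells and 667 reads in control siRNA cells. The ratio was 4.60 (4.22 to 5.03), and the log2(FPKM + 1) difference, SPRTN siRNA minus control siRNA, was 1.82, the 34th highest of the 13203 genes with a mean of at least 1 FPKM. UGT1A1 (ENSG00000241635) lies at chr2:233760248-233773299 on the plus strand (GRCh38, GENCODE release 29).

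UGT1A6, which conjugates small planar phenols such as paracetamol and serotonin, had 1.70 FPKM in SPRTN siRNA cells and 0.129 FPKM in control siRNA cells. About 128 reads in SPRTN siRNA cells stood against 14 in control siRNA cells, a ratio of 13.1 (7.55 to 24.7). Its log2(FPKM + 1) difference was 1.26, and it stayed out of the filtered set because its mean was 0.915 FPKM. The interval of UGT1A6 lay above that of UGT1A1. UGT1A6 spans chr2:233691607-233773300.

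UGT1A3, an enzyme for bile acids among other substrates, had 0.388 FPKM in SPRTN siRNA cells and 0.133 FPKM in control siRNA cells, from about 62 reads with SPRTN siRNA and 30 with control siRNA. UGT1A9, which conjugates bulky phenols such as the anaesthetic propofol, had 0.142 FPKM in SPRTN siRNA cells and 0.0429 FPKM in control siRNA cells, from about 23 reads with SPRTN siRNA and 10 with control siRNA. The ratios were 2.91 (1.89 to 4.76) for UGT1A3 and 3.31 (1.51 to 7.78) for UGT1A9, and both intervals lie above 1. As computed, neither excludes the ratio of UGT1A1, but the recovered reads of UGT1A3 were not whole, so its reads and interval are approximate. UGT1A3 spans chr2:233729108-233773299 and UGT1A9 chr2:233671853-233773300, both on the plus strand.

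The values of single UGT1A genes depend on how the authors assigned reads of the shared exons, a rule not given in the sources used here. In the annotation, 49.9% of the exonic bases of UGT1A1 lie in exons of other genes on the same strand, as do 80.0% for UGT1A3, 44.0% for UGT1A6 and 61.2% for UGT1A9. The last 736 coding bases are the same in all 4 of these genes. UGT1A5, UGT1A8 and UGT1A10 were listed at 0 in both libraries although they share 63.0%, 61.7% and 70.7% of their exonic bases, so reads in shared exons were not counted for every gene that overlaps them. Summed over all 9 UGT1A genes, a measure less open to how reads were split, the level was 13.3 FPKM in SPRTN siRNA cells and 2.70 FPKM in control siRNA cells, 4.93-fold higher. The FPKM sum still depends on the length of the gene a read was given to. Summed as recovered reads and scaled for depth, the 9 genes were 4.70-fold higher (4.32 to 5.11). By reads counted for any UGT1A gene, the locus as a whole was thus higher, whichever of these genes the shared reads belong to.

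UGT1A4, which conjugates amines and is no member, had about 6 reads in SPRTN siRNA cells and 0 in control siRNA cells. With the 6 reads taken as measured, this is at least 2.88-fold higher against a floor of 3 control reads, and the counting interval, which also covers the error of the 6 reads, reaches down to 1.69-fold.

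Among the UGT2B genes, UGT2B11 had 13.6 FPKM in SPRTN siRNA cells and 2.96 FPKM in control siRNA cells, from about 1206 reads with SPRTN siRNA and 378 with control siRNA. The ratio was 4.58 (4.08 to 5.16), and the log2(FPKM + 1) difference was 1.88, the 29th highest of 13203 genes and the largest among members that passed the filter. UGT2B11 (chr4:69199951-69214731, minus strand) is one of the less studied enzymes of the family. An antisense gene, RP11-704M14.1, covers 17.9% of its exonic bases and stood at 0.408 FPKM in SPRTN siRNA cells and 0.0580 FPKM in control siRNA cells. Whether counting used strand is unstated in the sources used here, so reads of the pair cannot be told apart where they overlap. Genes on the other strand also cover 20.5% of the exonic bases of UGT1A6, but the minus-strand genes of the UGT1A locus had few reads. AC114812.8 and RPL17P11 had 0 reads in both libraries. DNAJB3 had about 4 with SPRTN siRNA and 0 with control siRNA, and AC114812.5 had 0 with SPRTN siRNA and 1 with control siRNA.

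UGT2B4, an enzyme for bile acids, had 8.18 FPKM in SPRTN siRNA cells and 2.15 FPKM in control siRNA cells, from about 697 reads with SPRTN siRNA and 264 with control siRNA. Its ratio was 3.80 (3.29 to 4.39) and its log2(FPKM + 1) difference was 1.54, the 50th highest. It lies at chr4:69480165-69526014 on the minus strand.

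UGT2B7, which conjugates morphine and many other drugs and steroids, had 97.2 FPKM in SPRTN siRNA cells and 48.6 FPKM in control siRNA cells, from about 8692 reads with SPRTN siRNA and 6241 with control siRNA. The ratio was 2.002 (1.94 to 2.07). On the log2(FPKM + 1) scale the difference was 0.99, just under the 2-fold limit and rank 206, so its count as a 2-fold change depends on the scale. UGT2B7 lies at chr4:69051363-69112987 on the plus strand.

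UGT2B10, an enzyme that attaches glucuronic acid to the nitrogen of amines such as nicotine, had 103 FPKM in SPRTN siRNA cells and 88.5 FPKM in control siRNA cells. From about 11638 reads in SPRTN siRNA cells and 14315 in control siRNA cells, the ratio was 1.17 (1.14 to 1.20), and the log2(FPKM + 1) difference was 0.22, rank 2695. Its interval did not overlap those of UGT2B7, UGT2B4 or UGT2B11. The intervals reflect counting only, and nothing here shows how far separate cultures would differ. UGT2B10 lies at chr4:68815993-68831196 on the plus strand.

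UGT2B15 and UGT2B17 conjugate androgens, and their coding sequences are identical at 96.5% of columns. UGT2B15 (chr4:68646630-68670628, minus strand) had 0.0760 FPKM in SPRTN siRNA cells and 0.0528 FPKM in control siRNA cells, about 11 reads in each, with a ratio of 1.44 (0.565 to 3.66). UGT2B17 (chr4:68537184-68568527, minus strand) had 0.0215 FPKM in SPRTN siRNA cells and 0.00499 FPKM in control siRNA cells, from about 3 reads with SPRTN siRNA and 1 with control siRNA. At this depth no difference was detectable for either gene.

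The UGT2B genes do not share exons, but they share sequence. Of the 50-base stretches of UGT2B10 transcripts, 30.9% also occur in transcripts of other genes, as do 36.4% for UGT2B11, 27.8% for UGT2B15 and for UGT2B17, 5.38% for UGT2B7 and 3.14% for UGT2B4. UGT2B10 and UGT2B11 are thus the UGT2B members whose reads could most easily be split between copies, together with UGT2B15 and UGT2B17.

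**Figure D1:**
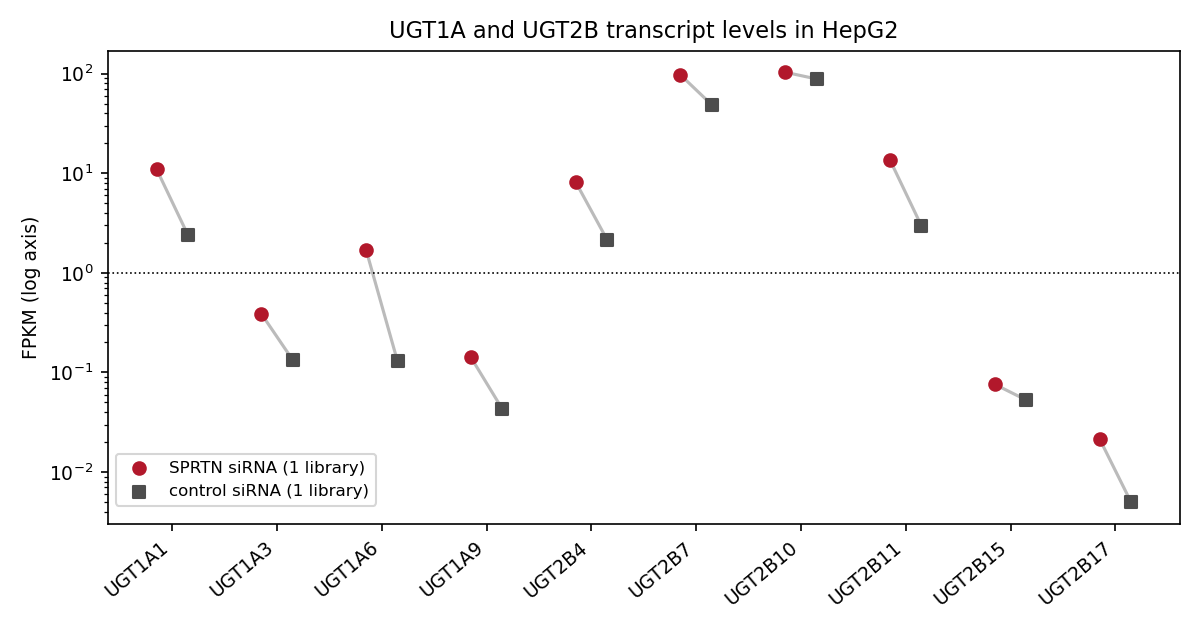
The FPKM of each of the 10 UGT members on a log axis, with the SPRTN siRNA library beside the control siRNA library, 1 point per library, and a dotted line at 1 FPKM. UGT2B10 and UGT2B7 are the most abundant in both libraries, and every SPRTN siRNA point lies above its control siRNA point. For UGT2B15 and UGT2B17 these points rest on few reads.

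Of the 10 members, 5 had a mean of at least 1 FPKM, and all 5 were also at or above 1 FPKM in each library. Of these, 3 (UGT1A1, UGT2B4 and UGT2B11) were at least 2-fold higher on the log2(FPKM + 1) scale, against 1.51% of the 13203 genes above the filter (199 genes). None of the 5 was 2-fold lower, against 0.788% of those genes. All 5 were above 0, against 43.4% of genes above the filter, and their median difference was 1.54 against -0.05 for all genes. For 8 of the 10 members, all but UGT2B15 and UGT2B17, the counting interval of the ratio lay above 1. The same was true of 31.5% of genes with a mean of at least 1 FPKM and of 17.1% of genes below it, so an interval above 1 is common at this depth.

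In the authors' deposited table, 7 of the 10 members were called higher, against 9.2% of the 25035 genes with a p-value there. UGT2B10, UGT2B15 and UGT2B17 were not called. The log2 fold change in the authors' deposited table was 3.72 for UGT1A6, 2.20 for UGT1A1 and for UGT2B11, and 1.00 for UGT2B7. The p-values in the authors' deposited table set 1 library against 1 library, so they compare these libraries and not the conditions.

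**Figure D2:**
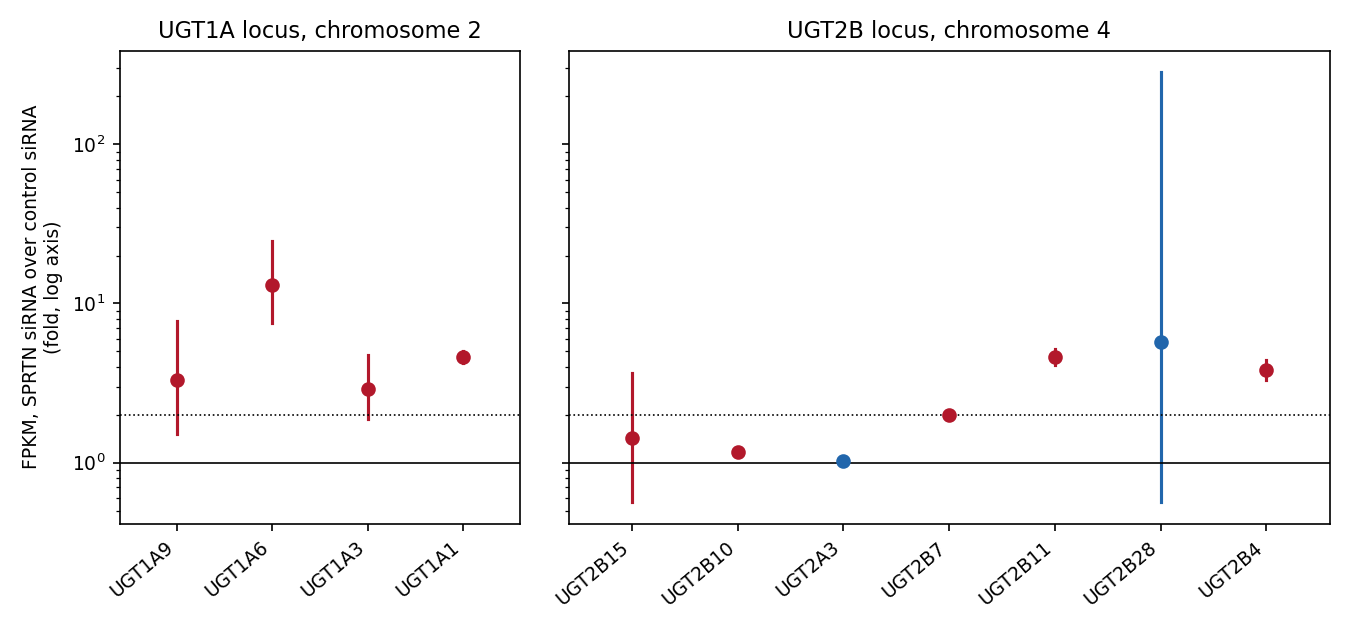
The ratio of FPKM, SPRTN siRNA over control siRNA, for UGT genes in the order of the loci, on a log axis, with 95% counting intervals as bars, a solid line at equal levels and a dotted line at 2-fold. Members are red and other UGT genes blue, and UGT2B17 is left out for its few reads. UGT2B10 at 1.17 and UGT2A3 at 1.02 lie lowest among the well-covered genes, and UGT1A6 at 13.1 lies highest among members.

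**Figure D3:**
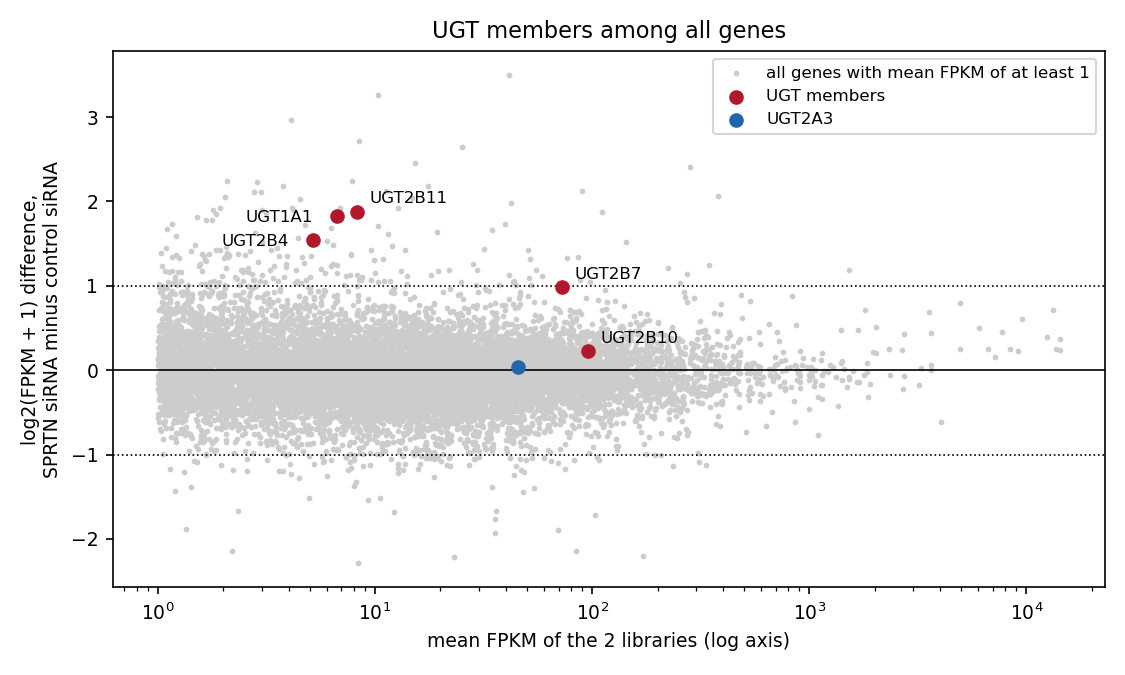
The log2(FPKM + 1) difference, SPRTN siRNA minus control siRNA, against the mean FPKM of the libraries on a log axis, for the 13203 genes with a mean of at least 1 FPKM, with dotted lines at 2-fold. UGT1A1, UGT2B4 and UGT2B11 lie above the upper line, UGT2B7 lies on it, and UGT2B10 and UGT2A3 lie within the bulk of the genes.

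UGT2B10 and UGT2B7, the abundant members, had smaller ratios than UGT1A1, UGT2B4 and UGT2B11, and the makeup of the UGT pool differed between the libraries. The 10 members summed to 236 FPKM in SPRTN siRNA cells and 145 FPKM in control siRNA cells, a 1.63-fold difference. UGT2B10 made up 43.9% of the sum in SPRTN siRNA cells and 61.1% in control siRNA cells, and UGT2B7 made up 41.2% with SPRTN siRNA and 33.5% with control siRNA. The 4 UGT1A members made up 5.62% in SPRTN siRNA cells and 1.86% in control siRNA cells. UGT2B10 was 7.62 times as abundant per length as UGT2B11 in SPRTN siRNA cells and 29.9 times in control siRNA cells. UGT1A1 was 6.48 times as abundant per length as UGT1A6 in SPRTN siRNA cells and 18.5 times in control siRNA cells. From the highest down, the order UGT2B10, UGT2B7, UGT2B11, UGT1A1 and UGT2B4 was the same in both libraries, and UGT1A6 came next with SPRTN siRNA and after UGT1A3 with control siRNA. With 1 library per group there is no spread to say which neighbours in this order differ.

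Along the UGT2B locus, the well-covered genes at the UGT2B10 end had smaller ratios than those at the UGT2B4 end. UGT2A3, an enzyme of the sister subfamily UGT2A that lies between UGT2B10 and UGT2B7, was the only one of the 12 other protein-coding UGT genes above the filter. It had 46.1 FPKM in SPRTN siRNA cells and 45.0 FPKM in control siRNA cells, a ratio of 1.02 (0.993 to 1.06). UGT2B11 and UGT2B4, on the other side of UGT2B7, had ratios of 4.58 and 3.80. Of the 12 other UGT genes, 6 were listed at 0 in both libraries and the rest apart from UGT2A3 had at most a few reads.

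The genes whose pair of levels lay nearest to that of UGT1A1, by Euclidean distance in log2(FPKM + 1) over the 2 libraries, were HIST1H2BC, ARG1 and ALDH3A1, at distances of 0.0333, 0.0692 and 0.123. ARG1, the arginase of the urea cycle, had 11.5 FPKM in SPRTN siRNA cells and 2.30 FPKM in control siRNA cells. The genes nearest to UGT2B7 were SLC39A5 and AGFG2, at distances of 0.0755 and 0.185. SLC39A5, a zinc transporter, had 101 FPKM in SPRTN siRNA cells and 50.5 FPKM in control siRNA cells. With 2 libraries such a likeness is a match of 2 levels only.

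Among the genes that supply the sugar donor, the farthest from 0 was lower with SPRTN siRNA. This was UGDH, which makes UDP-glucuronic acid from UDP-glucose and had 207 FPKM in SPRTN siRNA cells and 410 FPKM in control siRNA cells, a 1.98-fold lower level (1.94 to 2.01). UGP2, which makes UDP-glucose, was at 69.9 FPKM in SPRTN siRNA cells and 99.4 FPKM in control siRNA cells. SLC35D1, which carries UDP-glucuronic acid into the endoplasmic reticulum, was at 11.6 FPKM in SPRTN siRNA cells and 17.5 FPKM in control siRNA cells. Of 11 supply genes above the filter, none was 2-fold different on the log2(FPKM + 1) scale and 8 were below 0 and 3 above, against 56.6% of all genes below 0, with a median difference of -0.29.

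The transcripts were also searched for the seed site of the siRNA. An siRNA can lower transcripts that hold a match to the seed of its guide strand after the stop codon, and for the siRNA used that 7-base site is CTGGTTA. It was found after the stop codon of no transcript of any UGT member, and elsewhere in a transcript for UGT2B4 alone. It was found after the stop codon for UGDH in 3 of 12 annotated transcripts and for SLC35D1 in its 1 transcript, against 12.0% of 11163 protein-coding genes above the filter with the site in at least 1 transcript. It was also found after the stop codon in 1 of 10 transcripts of CYP1A1 and 1 of 14 of NFE2L2. Both genes were higher with SPRTN siRNA. No transcript of UGP2, PGM2, CEBPB, NR3C1, PPARA, TIPARP, BLVRA, SLC51A or ABCC4, all lower with SPRTN siRNA, held it there. Nor did any transcript of SULT1C2, ALDH3A1 or AHRR, which were higher. The part of the site in these levels was not tested.

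GUSB, the enzyme that removes glucuronic acid again, had 49.3 FPKM in SPRTN siRNA cells and 58.9 FPKM in control siRNA cells. Of the genes that form bilirubin, the main substrate of UGT1A1, BLVRA was at 48.5 FPKM in SPRTN siRNA cells and 63.1 FPKM in control siRNA cells, and HMOX1, the heme oxygenase, was at 126 FPKM with SPRTN siRNA and 103 FPKM with control siRNA. None of the 4 was 2-fold different, and their median difference was 0.20. Of the transporters of glucuronides, ABCC2, which exports them to bile, had 376 FPKM in SPRTN siRNA cells and 250 FPKM in control siRNA cells. ABCC3, which exports them to blood, had 88.9 FPKM in SPRTN siRNA cells and 68.6 FPKM in control siRNA cells. The 5 transporters above the filter had a median difference of 0.26, none of them 2-fold.

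The other conjugating enzymes had smaller medians than the UGT members. Of 5 sulfotransferase genes above the filter 1 was 2-fold higher, against 1.51% of all genes above it, and their median difference was 0.38. The 1 was SULT1C2, at 7.80 FPKM in SPRTN siRNA cells and 1.68 FPKM in control siRNA cells. SULT2A1, the sulfotransferase of steroids and bile acids, had 81.9 FPKM in SPRTN siRNA cells and 59.9 FPKM in control siRNA cells. All 14 glutathione transferase genes above the filter had differences above 0, against 43.4% of all genes, but none was 2-fold higher on the log2(FPKM + 1) scale and the median was 0.17. GSTO2 had the largest, 0.75, at 2.74 FPKM in SPRTN siRNA cells and 1.23 FPKM in control siRNA cells, a plain ratio of 2.23 (1.89 to 2.64).

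The regulators known to act on UGT genes were not higher as a group. Of 21 above the filter none was 2-fold different, and their median difference was -0.18. Of the 21, 7 were above 0 and 14 below, against 56.6% of all genes below 0. CEBPB had 23.1 FPKM in SPRTN siRNA cells and 46.0 FPKM in control siRNA cells, and NR3C1, the glucocorticoid receptor, had 7.82 FPKM with SPRTN siRNA and 12.3 FPKM with control siRNA. NFE2L2, which encodes NRF2, had 190 FPKM in SPRTN siRNA cells and 127 FPKM in control siRNA cells, and PPARA had 18.6 FPKM with SPRTN siRNA and 26.0 FPKM with control siRNA. AHR had 18.3 FPKM in SPRTN siRNA cells and 13.6 FPKM in control siRNA cells, a ratio of 1.35 (1.29 to 1.41). The level of a regulator's transcript does not measure its activity.

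Targets of these regulators, other than UGT genes, differed by list. Of 5 AHR targets above the filter 3 were 2-fold higher on the log2(FPKM + 1) scale, against 1.51% of all genes above it. The median difference of the 5 was 1.04, which is the value of AHRR itself. Among the 4 with a mean of at least 5 FPKM, AHRR not among them, 2 were 2-fold higher, against 86 of 9660 genes. The median of the 4 was 0.77. CYP1A1, the classical AHR target, had 214 FPKM in SPRTN siRNA cells and 73.6 FPKM in control siRNA cells. ALDH3A1 had 10.1 FPKM in SPRTN siRNA cells and 2.44 FPKM in control siRNA cells. AHRR had 1.95 FPKM with SPRTN siRNA and 0.436 FPKM with control siRNA and passed the filter only through the first of these. TIPARP, also a target, had 5.65 FPKM with SPRTN siRNA and 7.08 FPKM with control siRNA. NQO1, a target of both AHR and NRF2, had 671 FPKM with SPRTN siRNA and 664 FPKM with control siRNA. Its ratio was 1.01 (0.9998 to 1.02). Of 11 NRF2 targets above the filter 1 was 2-fold higher, against 1.51% of all genes above it, and the median was 0.28. The 1 was AKR1B10, at 611 FPKM in SPRTN siRNA cells and 145 FPKM in control siRNA cells.

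No FXR target was 2-fold different among 5 above the filter (median 0.44), where SLC51B, a bile acid exporter, had 27.4 FPKM in SPRTN siRNA cells and 13.9 FPKM in control siRNA cells. SLC51A, its partner subunit, went the other way, at 5.23 FPKM in SPRTN siRNA cells and 8.10 FPKM in control siRNA cells. The median of the FXR targets was 0.14 among those with a mean of at least 5 FPKM and 0.05 with no filter. None of the 4 targets of PXR and CAR above the filter was 2-fold different, and their median was 0.35. The median of the 5 UGT members above the filter, 1.54, was larger than that of each of these lists. These lists were not chosen blind to the data, and a list's median is a description of 1 pair of libraries.

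**Figure D4:**
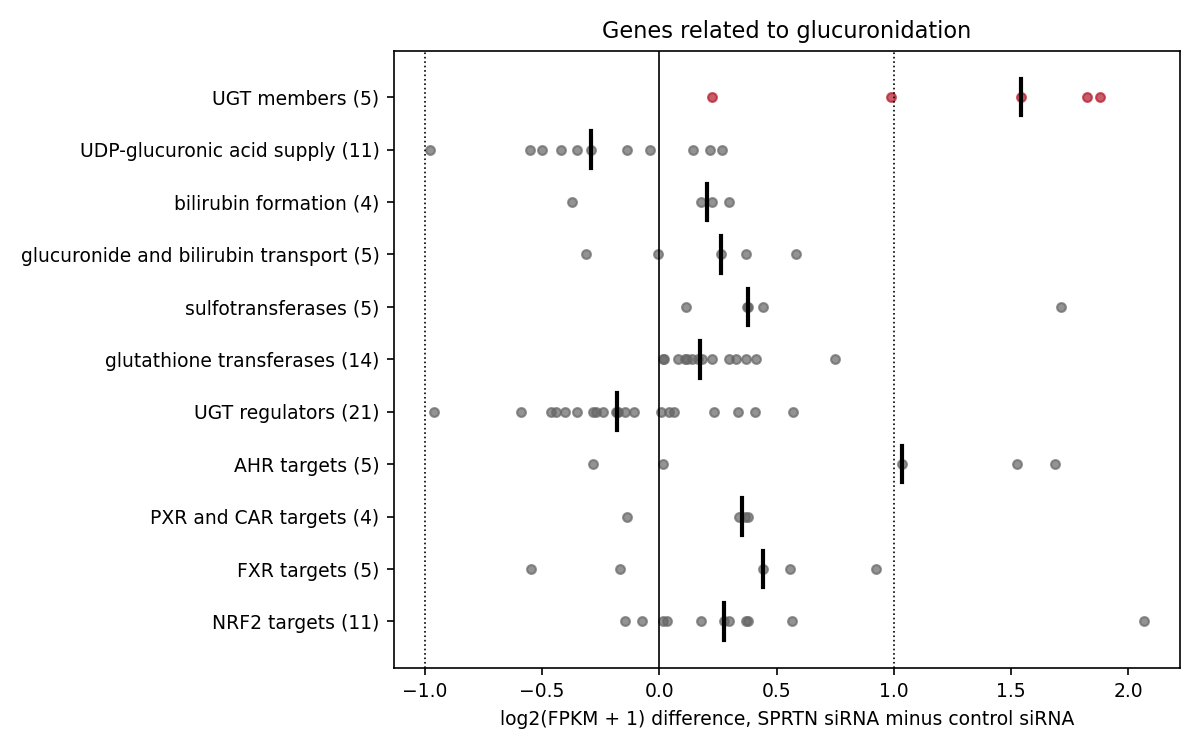
The log2(FPKM + 1) difference, SPRTN siRNA minus control siRNA, of each gene above the filter, by list, with a bar at the list's median, dotted lines at 2-fold and the number of genes in brackets. The UGT members have the highest median, 1.54. That of the AHR targets is 1.04, or 0.77 over the 4 with a mean of at least 5 FPKM, and the UDP-glucuronic acid supply has the lowest, -0.29.

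Markers of other cell types were also read. The intestinal list, of a tissue that makes several UGT1A enzymes, summed to 134 FPKM in SPRTN siRNA cells and 135 FPKM in control siRNA cells, nearly all from VIL1. The endothelial list summed to 14.3 FPKM in SPRTN siRNA cells and 7.55 FPKM in control siRNA cells, with 5 of 8 markers above the filter and 1 at 0 in both. The median log2(FPKM + 1) difference of the 5 was 0.92. On that scale 2 of them, CDH5 and LYVE1, were 2-fold higher, against 1.51% of all genes above the filter. CDH5 had 2.74 FPKM with SPRTN siRNA and 0.439 FPKM with control siRNA. It passed the filter only through the first of these. By plain ratio 3 exceeded 2-fold, CDH5 at 6.23, LYVE1 at 2.97 and ENG at 2.54. TIE1 went the other way, at 1.07 FPKM in SPRTN siRNA cells and 1.84 FPKM in control siRNA cells. PECAM1 had a ratio of 1.18 (0.995 to 1.40). The fibroblast list summed to 9.66 FPKM in SPRTN siRNA cells and 9.96 FPKM in control siRNA cells, and the biliary list to 556 FPKM with SPRTN siRNA and 477 FPKM with control siRNA. The blood list, mostly LYZ, summed to 1299 FPKM with SPRTN siRNA and 1372 FPKM with control siRNA. Hepatocyte markers had a median difference of 0.37, which is below those of UGT1A1, UGT2B4, UGT2B7 and UGT2B11 and above that of UGT2B10. The part of any of these markers in the UGT values was not tested.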

How the data were processed

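The data are 1 library of HepG2 cells with an siRNA against SPRTN and 1 library with a negative control siRNA. Groups come from the treatment labels, and columns were matched to them by the siRNA prefix of their names. The FPKM are named row means, and what was averaged is unstated, so each column is taken as 1 library, though it could pool several. The authors deposited FPKM per gene, and a second table with length-scaled coverage (a signal equal to FPKM with SPRTN siRNA and to 1.44 times FPKM with control siRNA). That deposited table also holds the authors' log2 fold change for each gene, with a p-value and its adjusted form. In it the adjusted p was below the p for 18203 of 25035 genes, so only its fold changes and calls are given. The authors worked on GRCh38.p13 and used edgeR, at an unstated version and step, per the submitters' processing notes. The aligner, counter, annotation and use of strand are not stated in the sources used here.

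Differences are SPRTN siRNA minus control siRNA on the log2(FPKM + 1) scale, which understates the change of low genes. They are counted where the mean is 1 FPKM or more. Printed folds are plain FPKM ratios. FPKM times the mean GENCODE release 29 transcript length, known for 94.1% of genes, was divided by the value of 1 read to give reads. That value was inferred in each library from the most common low value among genes with 1 transcript, and it also gave the library depth. Among values of at most 20 reads, 93.3% with SPRTN siRNA and 93.9% with control siRNA were whole within 0.05. Recovered reads are approximate where the authors' gene models differ, and those of UGT1A3, UGT2B11 and UGT2B15 were not exactly whole. The Clopper-Pearson 95% intervals rest on the recovered reads. No test across libraries was possible. Promoter windows are from RefSeq, aligned with Biopython 1.88, and other steps used Python 3.11.15, pandas 2.3.3 and scipy 1.17.1.

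The members and lists were chosen with earlier results of these data known. The text names all members, SPRTN, other UGT genes above the filter, up to 4 genes of each related list with the largest absolute difference, and the 3 protein-coding genes nearest to UGT1A1 and to UGT2B7. Some results that this rule takes are not reported here. UGT1A4, UGT1A5, UGT1A8, UGT1A10, AHR, NQO1, ALB, VIL1, LYZ and MALAT1 were named outside this rule, after their values were seen. So were CDH5, LYVE1, ENG, TIE1, PECAM1, the antisense gene and the minus-strand genes of the UGT1A locus. Alternatives were another pseudocount, other filters, other scalings, scaling by total recovered reads and each locus alone.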

Additional observations from a re-analysis of the deposited data

How the results depend on the processing

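No paired analysis was possible because each group has 1 library, and for the same reason no replicate could be left out. No difference of a member changed direction under any alternative run. With a pseudocount of 0.1 in place of 1, the log2 difference was 2.16 for UGT1A1 (1.82 as reported), 1.88 for UGT2B4 (1.54), 2.16 for UGT2B11 (1.88) and 1.88 for the median of the members above the filter (1.54). The low members moved more, UGT1A6 to 2.97 (1.26), UGT1A3 to 1.07 (0.29) and UGT1A9 to 0.76 (0.13). From recovered reads scaled to the library total, UGT1A1 was at 2.05. Centred on the median gene, UGT2B7 was at 1.04 and UGT2B10 at 0.28, and with median-of-ratios scaling at 1.05 and 0.28, against 0.99 and 0.22 as reported. UGT2B7 thus crossed the 2-fold limit under both scalings, as it did with a pseudocount of 0.1. The members' median was 0.64 over all 10 genes without a filter, 1.82 for UGT1A1, the only UGT1A member above the filter, and 1.26 for the 4 UGT2B members above it. The UGT1A genes summed gave 1.95.

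Over all genes, 199 were 2-fold higher and 104 lower. With a pseudocount of 0.1 these counts were 368 and 230, and with a mean of at least 5 FPKM 86 genes were higher. Centring gave 221 higher and 77 lower, and median-of-ratios scaling gave 221 and 72. They took out shifts of the median gene of -0.05 and -0.06, so the differences of the members rose. Depth limits UGT1A9, UGT2B15 and UGT2B17 most, since they rest on few reads. The precision of every value is limited by 1 library per group.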

Other observations

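Transcripts at the UGT loci that are not members were also read. UGT2B27P, a pseudogene close in sequence to UGT2B10, had 6.32 FPKM in SPRTN siRNA cells and 4.31 FPKM in control siRNA cells, a ratio of 1.47 (1.32 to 1.63), and it holds 14.8% of the 50-base stretches of UGT2B10 transcripts. AC114812.10, a pseudogene within the UGT1A locus on the same strand, had about 18 reads in SPRTN siRNA cells and 0 in control siRNA cells. With the 18 reads taken as measured, it was at least 8.63-fold higher against a floor of 3 control reads. Its counting interval reaches down to 6.32-fold. UGT2B25P, a pseudogene that holds 19.9% of the 50-base stretches of UGT2B11 transcripts, had about 7 reads in SPRTN siRNA cells and 0 in control siRNA cells. RP11-704M14.1, antisense to UGT2B11, had about 44 reads in SPRTN siRNA cells and 9 in control siRNA cells, a ratio of 7.03 (3.39 to 16.4). RP13-644M16.5, a pseudogene within the UGT2B locus, had 0.922 FPKM in SPRTN siRNA cells and 1.06 FPKM in control siRNA cells. These genes were chosen after their values were seen. At the UGT1A locus 10 of 16 annotated genes were above 0, and at the UGT2B locus 24 of 45.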
